A study of Mus musculus with 2 samples.

Results

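Forkhead box (Fox) genes encode transcription factors that share a winged-helix DNA-binding domain, and this account sets out their signals in SVEC4-10 and MS-1 cells, mouse lines described as endothelial. Members were the probe sets assigned to a single gene whose symbol begins with Fox, a class letter from a to s and a number. The rule took 83 probe sets of 38 genes, out of 34945 probe sets with 1 gene and 18193 genes on the array, and it used no measured value. One of the 38, Foxl2os, is a non-coding transcript beside Foxl2 rather than a forkhead gene, but its symbol meets the rule. The lines were SVEC4-10, derived from an axillary lymph node and grown in DMEM with 10% fetal calf serum, and MS-1, derived from the microvasculature of the pancreas and grown in DMEM with 5% fetal calf serum. Both were cultured for 3 to 5 days to confluence, passaged at a split of 1 to 6 and used up to passage 5. Both lines carry the SV40 large T antigen, which binds p53 and the retinoblastoma proteins. Total RNA of 1 culture per line was hybridised to 1 Affymetrix array, so no difference has a replicate check, no p-value was computed, and line, serum and culture cannot be told apart.

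Forkhead factors are grouped into classes by the sequence of their DNA-binding domain, and the letter in each name gives the class. Several act in vessels: FOXC1, FOXC2 and FOXF1 take part in forming the vascular and lymphatic endothelium, FOXO factors restrain endothelial growth and are shut out of the nucleus when AKT phosphorylates them, and FOXM1 drives the transcription of mitotic genes in dividing cells. Others, such as FOXA2 in endoderm, FOXD1 in kidney stroma and FOXF2 in mesenchyme, mark tissues other than endothelium.

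Signals are the deposited probe set intensities on a linear scale, and background was set at the 95th percentile of 129 probe sets for families restricted to the nose, tongue or hair (Olfr, Vmn, Tas and Krtap genes), which was 17.6 for SVEC4-10 and 16.3 for MS-1. A value below background was raised to it before a ratio was taken, so a fold against such a value is a lower bound and is written as "at least". A positive log2 ratio means a higher signal in SVEC4-10. The error of these ratios, from 2 probe sets of the same gene, was 0.48 (SD, 4813 genes), or 0.41 over the 11 forkhead genes that entered it. It holds no variation between cultures. The 21 poly-A control probe sets above background, several to a transcript, were higher on the SVEC4-10 array, with a median log2 ratio of 0.51, and scaling to them would lower every ratio by that amount.

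The labels call both lines endothelial, and the arrays differed in the defining markers. Of 17 endothelial markers, 5 were above background in SVEC4-10 cells and 16 in MS-1 cells, and their summed signals were 278 and 32458. Pecam1, also known as CD31, gave a signal of 1.27 in SVEC4-10 cells and 4777 in MS-1 cells, and Cdh5, the endothelial cadherin, had 12.9 and 249. Of 14 fibroblast, pericyte and smooth muscle markers, 9 were above background in SVEC4-10 cells (summed signal 34403) and 3 in MS-1 cells (187). Of 9 mesothelial markers, 8 were above background in SVEC4-10 cells (17275) and 5 in MS-1 cells (408). By ratio, 7 of them were at least 4-fold higher in SVEC4-10 and 2 in MS-1. Those 2 were the keratins Krt18 (24.5 in SVEC4-10 cells and 201 in MS-1 cells) and Krt19 (8.93 and 121). Leukocyte markers exceeded background in 2 of 9 cases in SVEC4-10 cells (summed signal 125) and in 5 of 9 in MS-1 cells (3827), with Ptprc, the leukocyte antigen CD45, below background on both. Cd68, a lysosomal protein of macrophages, made up most of the MS-1 sum, with 45.9 in SVEC4-10 cells and 3645 in MS-1 cells, and the other 4 measured leukocyte markers were at most 50.7 in MS-1 cells. Epithelial markers exceeded background in 3 of 8 cases in SVEC4-10 cells (337) and in 4 of 8 in MS-1 cells (138). With 1 array per line these markers differ along with every forkhead difference given here, and their part in it was not tested. In bulk RNA, fewer cells of a type and less RNA per cell cannot be told apart.

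Of the 38 forkhead genes, 24 (63.2%) exceeded background in one line or both, against 69.2% of all genes. Above background on both arrays were 17 of them, in SVEC4-10 only 5 (Foxa2, Foxc1, Foxd1, Foxf2 and Foxp2) and in MS-1 only 2 (Foxh1 and Foxn1). Of the 24, 3 (12.5%) exceeded 4-fold towards SVEC4-10, against 5.60% of 12583 measured genes, and 1 (4.17%) exceeded it towards MS-1, against 4.20%. At 2-fold the counts were 6 (25%) against a background of 15.1% towards SVEC4-10 and 3 (12.5%) against 12.0% towards MS-1. The other 15 did not reach 2-fold, and for those under background on 1 array, such as Foxp2 and Foxh1, the ratio is a bound that does not show a difference under 2-fold. With poly-A scaling the 2-fold counts became 5 towards SVEC4-10 and 7 towards MS-1, and the shares of all measured genes 8.42% and 25.3%. Each count rests on few genes.

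**Figure D1:**
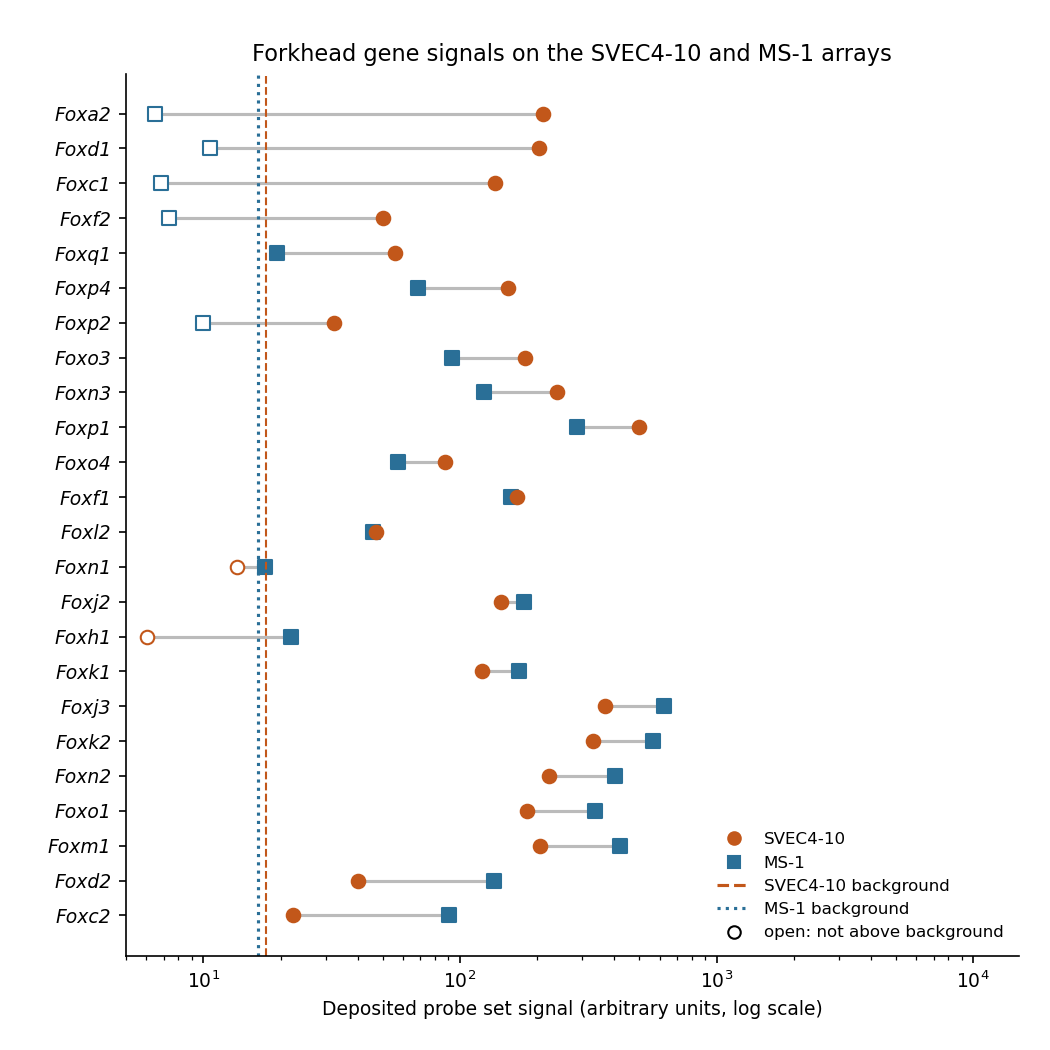
Deposited signals (x axis, arbitrary units, log scale) of the 24 measured forkhead genes in SVEC4-10 (orange circles) and MS-1 (blue squares), sorted by log2 ratio, with the background of each array as a vertical line and open symbols for values not above it. Foxa2, Foxd1, Foxc1, Foxf2 and Foxp2 exceed background in SVEC4-10 only, Foxh1 and Foxn1 in MS-1 only, whereas the other 17 genes are above background on both.

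The median log2 ratio of the 24 genes was 0.06, close to the 0.02 of all measured genes, and their quartiles were -0.77 and 1.04 against -0.50 and 0.58. The median distance from 0 was 0.91 on the log2 scale for the forkhead genes and 0.54 for all measured genes. By these measures the forkhead genes were centred like other genes and spread wider around that centre, with members on both sides. None of these values lay outside -2.02 to 3.69, but the upper limit is the Foxa2 bound, and with no background floor Foxa2 was at 5.02. All measured genes, which are far more in number, reached further on both sides.

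**Figure D2:**
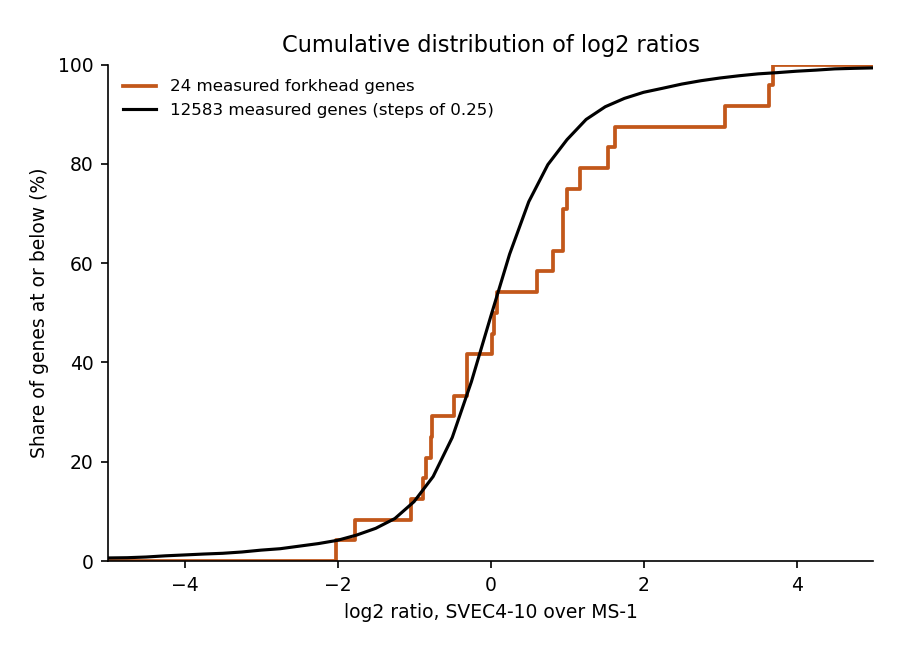
Cumulative share of genes (y axis, %) at or below each log2 ratio of SVEC4-10 over MS-1 (x axis) for the 24 measured forkhead genes (orange) and 12583 measured genes (black). The curves cross near 0, and the orange curve then runs below the black one up to about 3.5. Of the forkhead genes 25%, and of all genes 15.1%, differ by 2-fold or more towards SVEC4-10. With bounds plotted as values, the orange curve has reached 100% at 3.75 and the black one 98.4%.

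The forkhead genes furthest towards SVEC4-10 were Foxa2, Foxd1 and Foxc1. Foxa2, a pioneer factor of endoderm and floor plate, gave a signal of 211 in SVEC4-10 cells and 6.49 in MS-1 cells, at least 12.9-fold higher in SVEC4-10 (log2 ratio 3.69). Foxd1, a factor of kidney stromal progenitors, gave a signal of 203 in SVEC4-10 cells and 10.6 in MS-1 cells, at least 12.4-fold higher (log2 ratio 3.64). Each of these 2 genes has 1 probe set, so no second one bears on the value. Foxc1, which acts in the mesoderm of the eye, heart and vessels, gave a signal of 137 in SVEC4-10 cells and 6.82 in MS-1 cells, at least 8.40-fold higher (log2 ratio 3.07). Its second probe set had signals of 65.5 and 5.98 and a log2 ratio of at least 2.01. All 4 probe sets of these 3 genes lay under the MS-1 background.

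A further 3 genes were between 2-fold and 4-fold towards SVEC4-10 by their representative probe sets, the Foxf2 value being a bound, and for one of them, Foxp4, the other probe sets differed. Foxf2, a factor of gut mesenchyme and brain pericytes, gave a signal of 50.1 in SVEC4-10 cells and 7.34 in MS-1 cells, at least 3.08-fold higher (log2 ratio 1.62), while its second probe set was below background on both. Foxq1, linked to mesenchymal transition in carcinoma cells, had signals of 56.0 and 19.3, which is 2.90-fold higher in SVEC4-10 (log2 ratio 1.54). Its second probe set, of a class that can cross-hybridise, had 26.95 in SVEC4-10 cells and 0.257 in MS-1 cells, a log2 ratio of at least 0.73. For Foxp4, a repressor with roles in lung and gut epithelium, the probe sets gave both signs. The brightest had signals of 154 in SVEC4-10 cells and 68.6 in MS-1 cells (log2 ratio 1.17), the second 62.1 and 59.1 (0.07) and the third 30.7 and 51.9 (-0.76), so no direction is given for Foxp4, although it counts among the 6 by its brightest probe set.

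On the MS-1 side stood a vascular factor, a mesodermal factor and the mitotic factor of the family. Foxc2, which shapes lymphatic valves and vessels, gave a signal of 22.4 in SVEC4-10 cells and 90.9 in MS-1 cells, 4.06-fold higher in MS-1 (log2 ratio -2.02). Its SVEC4-10 signal lay just above the background of 17.6, so with background doubled only a bound of -1.37 was left. Foxd2, a factor of paraxial mesoderm and kidney mesenchyme, had signals of 40.1 and 136, 3.40-fold higher in MS-1 (log2 ratio -1.77), and its second probe set was below background on both arrays.

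Foxm1 gave a signal of 204 in SVEC4-10 cells and 419 in MS-1 cells, 2.05-fold higher in MS-1 (log2 ratio -1.04). Its other 2 measured probe sets had 156 and 168 in SVEC4-10 cells, against 307 and 335 in MS-1 cells, with log2 ratios of -0.98 and -0.997. The 3 measured probe sets thus gave nearly the same ratio, close to a 2-fold difference.

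The FOXO genes lay within 2-fold by their representative probe sets and on both sides of 0. Foxo1, the main FOXO factor of endothelium, gave a signal of 183 in SVEC4-10 cells and 337 in MS-1 cells (log2 ratio -0.88) by its representative probe set. Its other 2 measured probe sets had 151 and 106 in SVEC4-10 cells, against 382 and 317 in MS-1 cells, and gave -1.34 and -1.58, past 2-fold. Foxo3 was on the other side of 0, with signals of 180 and 92.9 (log2 ratio 0.95) and further probe sets at 0.73 and at least 0.24. Foxo4 had 87.7 in SVEC4-10 cells and 57.4 in MS-1 cells (log2 ratio 0.61).

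Among the FOXP factors, which repress transcription as dimers, Foxp1 had the most probe sets. Its brightest gave a signal of 500.1 in SVEC4-10 cells and 285 in MS-1 cells (log2 ratio 0.81), and the 6 measured probe sets ran from -0.00 to 0.81. Foxp2, a factor of brain and lung, reached 32.4 in SVEC4-10 cells and 9.98 in MS-1 cells (log2 ratio at least 0.99, and at least 0.22 by its second measured probe set).

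In class N, whose FOXN2 and FOXN3 proteins are broadly expressed, the signs were opposed. Foxn3 gave a signal of 239 in SVEC4-10 cells and 124 in MS-1 cells (log2 ratio 0.95), with 4 probe sets from 0.65 to 0.95. Foxn2 had 223 and 402 (log2 ratio -0.85). Foxn1, the factor of thymic epithelium, had 13.5 in SVEC4-10 cells, under background, and 17.4 in MS-1 cells, just above it, so no ratio is given.

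The measured genes of classes J and K, which are broadly expressed, leaned towards MS-1 by their representative probe sets without reaching 2-fold. With poly-A scaling Foxj3 (-1.28) and Foxk2 (-1.29) passed 2-fold, and Foxj2 and Foxk1 did not. Foxj3 gave a signal of 367 in SVEC4-10 cells and 623 in MS-1 cells (log2 ratio -0.76, second probe set -0.49), and Foxj2 had 144 and 178 (-0.30, second probe set 0.03). Foxk2, which with FOXK1 represses autophagy genes, had 329 in SVEC4-10 cells and 563 in MS-1 cells (log2 ratio -0.78), but its 5 probe sets ran from -0.78 to 0.07. Foxk1 had 122 and 169 (-0.48), and its second measured probe set gave 0.44. For Foxj2, Foxk1 and Foxk2 the sign therefore depends on the probe set.

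The remaining measured genes were close to equal or close to background. Foxf1, a hedgehog-responsive factor of lung mesenchyme and endothelium, had signals of 167 in SVEC4-10 cells and 158 in MS-1 cells (log2 ratio 0.08), and its second probe set 42.5 and 40.7 (0.06). Foxl2, a factor of ovarian granulosa cells, had 47.1 and 45.8 (0.04). Both log2 ratios are well inside the error of 0.48 and turn to -0.43 and -0.47 with poly-A scaling. Foxh1, the partner of SMAD proteins in Nodal signalling, had 6.06 in SVEC4-10 cells and 21.9 in MS-1 cells, and its other 2 probe sets were below background on both.

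The other 14 genes were not above background on either array with any of their probe sets: Foxa1, Foxa3, Foxb1, Foxb2, Foxd3, Foxd4, Foxe3, Foxi1, Foxj1, Foxl1, Foxl2os, Foxn4, Foxp3 and Foxs1. Their highest signals were 13.3 in SVEC4-10 cells and 15.7 in MS-1 cells. Each of them has a single probe set, so a transcript that this probe set misses would not be seen. Among them are the ciliary factor Foxj1 and the regulatory T cell factor Foxp3. In all, 51 of the 83 forkhead probe sets were above background on at least 1 array, and of 14 genes with several measured probe sets, 9 had all of them on the same side of 0.

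Members of 1 forkhead class could lie far apart. Over the 8 classes with at least 2 measured members, 12 pairs could be formed, and in 6 of them the log2 ratios differed by over 2 times the error of such a difference (0.68). A difference between 2 genes is the same under any scaling by 1 factor per array. The widest gap was between Foxd1 and Foxd2, whose log2 ratios were at least 5.40 apart. Foxc1 and Foxc2 followed with at least 5.09. Smaller gaps were found between Foxo3 and Foxo1 (1.83), Foxn3 and Foxn2 (1.79), Foxf2 and Foxf1 (at least 1.54) and Foxo4 and Foxo1 (1.49). Between Foxo3 and Foxo1 the gap depends on the probe sets taken: it was 2.29 or 2.53 with the other Foxo1 probe sets, and 1.61 or at least 1.12 with the other Foxo3 probe sets, the last being under 2 errors. By representative probe sets, pairs within classes J and K, Foxp1 with Foxp4, and Foxo3 with Foxo4 differed by less than 1 error. Foxp2 did so with Foxp1 and Foxp4 only at its bound, so its gaps are not known. Other probe sets of Foxp4 (-0.76) and Foxk1 (0.44) would widen the gaps to Foxp1 (0.81) and Foxk2 (-0.78).

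**Figure D3:**
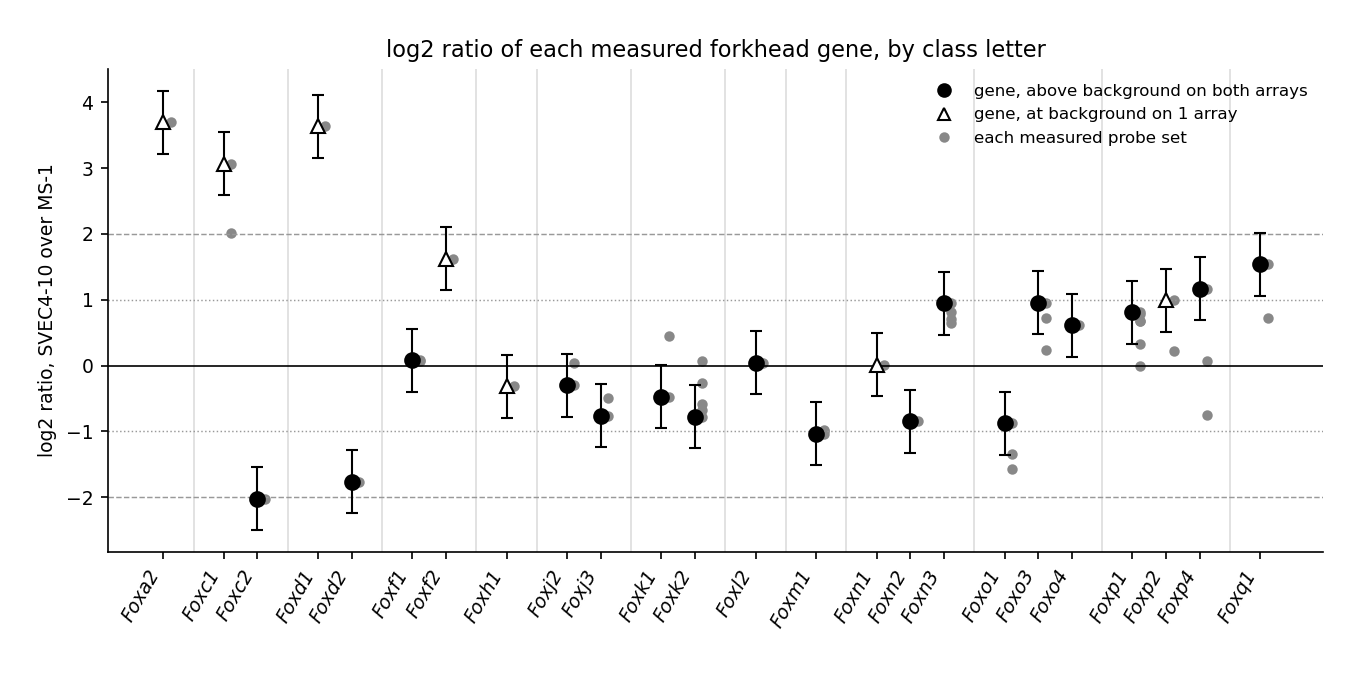
Log2 ratio of SVEC4-10 over MS-1 (y axis) for each measured forkhead gene, grouped by class letter. Black symbols with bars are the gene's value and the error of 0.48, triangles mark genes not above background on 1 array, grey points are single measured probe sets, and dotted and dashed lines mark 2-fold and 4-fold. Classes C and D each hold one gene high and one gene low, and class O has Foxo1 below 0 and Foxo3 and Foxo4 above.

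Several forkhead genes are neighbours in the RefSeq gene order of GRCm38.p6, on chromosomes 13, 8 and 4. On chromosome 13, Foxq1, Foxf2 and Foxc1 follow each other. By representative probe sets all 3 were at least 2-fold higher in SVEC4-10, with log2 ratios of 1.54, at least 1.62 and at least 3.07. The other Foxq1 probe set gave at least 0.73, and with background doubled Foxf2 and Foxq1 were left with bounds of 0.62 and 0.78. Next to Foxc1, Gmds, an enzyme of GDP-fucose synthesis, had signals of 342 in SVEC4-10 cells and 125 in MS-1 cells (log2 ratio 1.45). On the other flank the gene next to Foxq1, Hus1b, had no probe set of its own. Beyond Hus1b, Exoc2, a subunit of the exocyst, had 240.2 and 252 (-0.07). Of the nearest measured gene on each flank, one was thus past 2-fold towards SVEC4-10 and the other was within the error of 0. Foxd1 lies elsewhere on chromosome 13.

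On chromosome 8 the neighbours Foxf1, Foxc2 and Foxl1 had no common direction. Foxf1 differed by less than the error (0.08), Foxc2 was lower in SVEC4-10 (-2.02) and Foxl1 was not above background. Fendrr, the non-coding transcript beside Foxf1, had signals of 26.0 in SVEC4-10 cells and 24.3 in MS-1 cells (0.10), and Mthfsd, which lies between Foxf1 and Foxc2 in the gene order, had 191 and 84.9 (1.17). The next gene beyond Fendrr, Irf8, an interferon regulatory factor of myeloid cells, had 2.04 in SVEC4-10 cells and 324 in MS-1 cells (-4.20, a bound). On chromosome 4, Foxd2 lies between Foxe3, which was not above background, and Trabd2b, an inhibitor of Wnt proteins, which had 163 in SVEC4-10 cells and 17.3 in MS-1 cells (3.23), the side opposite to Foxd2.

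**Figure D4:**
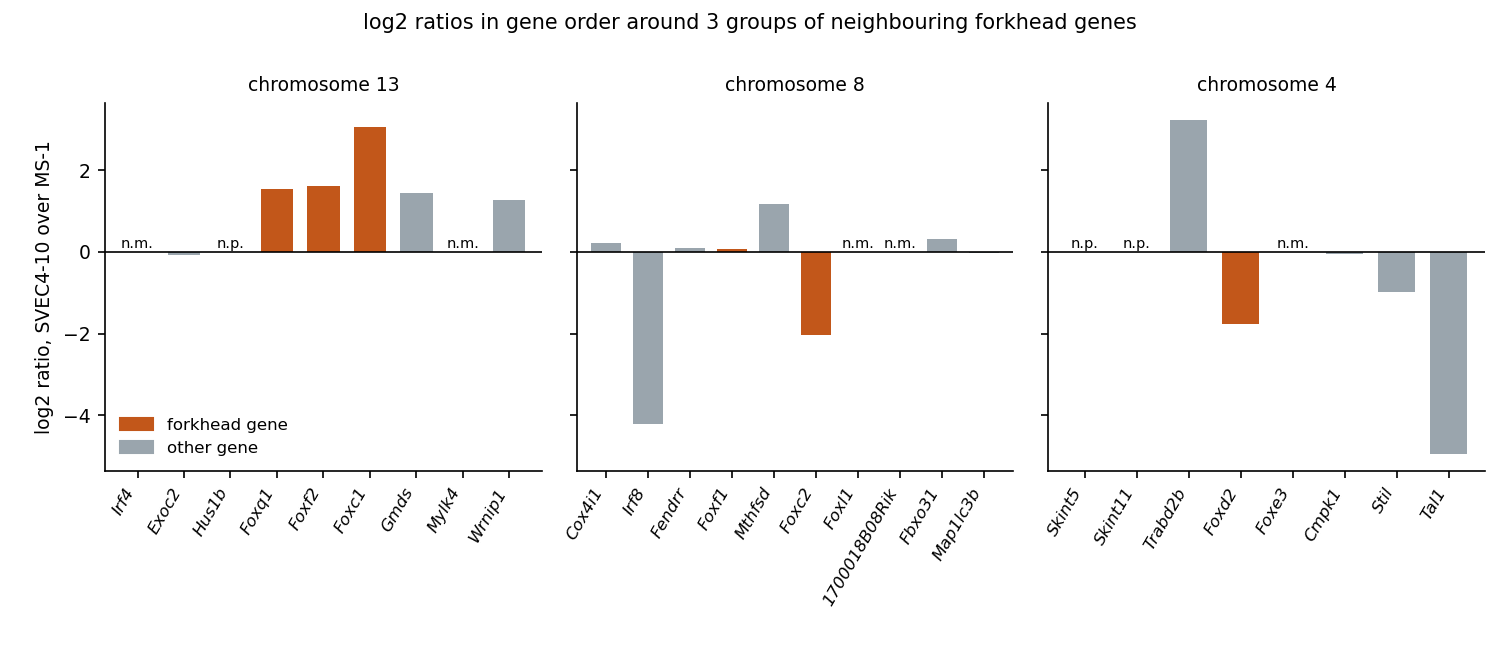
Log2 ratio of SVEC4-10 over MS-1 (y axis) for genes in chromosomal order around the neighbouring forkhead genes of chromosomes 13, 8 and 4 (forkhead genes in orange, others in grey; bars for genes at background on 1 array are bounds, "n.m." means not above background on either array and "n.p." no probe set of its own). Foxq1, Foxf2 and Foxc1 point up together, whereas Foxf1 and Foxc2 differ.

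Promoter windows of RefSeq (GRCm38.p6, 250 bases before to 50 after a transcript start) were found for 25 of the 38 genes, 30 windows in all. Those of the 5 forkhead genes furthest from 0 that have one are shown, since the widest forkhead ratios are theirs, apart from Foxc2, for which the table held none: Foxa2, Foxd1, Foxc1 and Foxf2, higher in SVEC4-10, and Foxd2, higher in MS-1. Capitals mark matches to the GC box (GGGCGG), to the CCAAT box by those letters, to the TATA box (TATAAA) and to a forkhead site (GTAAACA), each searched on both strands. No match in these windows overlapped another. The windows are Foxa2 at chr2:148046920-148047219 on the minus strand (the most upstream of 3 starts), Foxd1 at chr13:98353995-98354294 on the plus strand, Foxc1 at chr13:31806396-31806695 on the plus strand, Foxf2 at chr13:31625566-31625865 on the plus strand and Foxd2 at chr4:114908849-114909148 on the minus strand. Each is written 5′ to 3′ in the direction of transcription.
Foxa2: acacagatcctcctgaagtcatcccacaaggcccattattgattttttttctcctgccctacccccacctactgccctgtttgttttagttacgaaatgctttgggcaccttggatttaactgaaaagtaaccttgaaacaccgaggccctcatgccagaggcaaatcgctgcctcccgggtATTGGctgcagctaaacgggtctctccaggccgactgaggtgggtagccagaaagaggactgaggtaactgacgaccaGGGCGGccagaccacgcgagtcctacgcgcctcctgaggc
Foxd1: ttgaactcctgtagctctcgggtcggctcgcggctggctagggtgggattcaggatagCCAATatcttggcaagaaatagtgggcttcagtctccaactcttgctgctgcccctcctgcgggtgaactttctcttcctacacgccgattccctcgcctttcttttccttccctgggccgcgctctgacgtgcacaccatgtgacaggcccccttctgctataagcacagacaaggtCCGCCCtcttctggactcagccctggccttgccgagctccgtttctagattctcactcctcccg
Foxc1: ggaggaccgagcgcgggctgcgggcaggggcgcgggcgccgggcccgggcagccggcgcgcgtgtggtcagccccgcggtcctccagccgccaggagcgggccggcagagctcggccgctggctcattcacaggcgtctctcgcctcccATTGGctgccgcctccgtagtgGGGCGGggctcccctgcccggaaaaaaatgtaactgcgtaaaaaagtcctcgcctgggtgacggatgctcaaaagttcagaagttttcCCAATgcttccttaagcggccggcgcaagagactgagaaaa
Foxf2: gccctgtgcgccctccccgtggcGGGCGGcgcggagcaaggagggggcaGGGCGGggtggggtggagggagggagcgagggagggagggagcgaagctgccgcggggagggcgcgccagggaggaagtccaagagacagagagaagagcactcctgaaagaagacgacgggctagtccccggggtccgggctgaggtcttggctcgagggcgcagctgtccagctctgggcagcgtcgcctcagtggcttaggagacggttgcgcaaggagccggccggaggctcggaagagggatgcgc
Foxd2: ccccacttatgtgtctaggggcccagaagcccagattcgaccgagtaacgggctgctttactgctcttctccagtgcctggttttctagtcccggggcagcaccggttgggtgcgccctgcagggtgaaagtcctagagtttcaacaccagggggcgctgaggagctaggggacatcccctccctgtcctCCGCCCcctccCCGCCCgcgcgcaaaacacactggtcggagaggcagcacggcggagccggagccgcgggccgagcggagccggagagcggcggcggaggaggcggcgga

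These windows held 12 CpG dinucleotides for Foxa2, 15 for Foxd1, 32 for Foxc1, 27 for Foxf2 and 26 for Foxd2. The median was 22.5 over the 30 forkhead windows and 7 over all 32851 windows. A GC box was in 22 of the 30 forkhead windows and in 35.7% of all windows, and each of the 5 shown has at least 1. A CCAAT box was in 13 of the 30 and in 37.4% of all; it is present in the windows of Foxa2, Foxd1 and Foxc1 and has no match in those of Foxf2 and Foxd2. A TATA box was in 3 of the 30 forkhead windows and in 13.6% of all. The forkhead site itself was in 1 of the 30, that of Foxa1, and in 3.65% of all windows. No motif separated the 4 genes higher in SVEC4-10 from Foxd2, and a match of letters is a description, not a bound site.

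Genes of the pathways around forkhead factors were read from lists, by counts and medians beside all measured genes (15.1% at least 2-fold higher in SVEC4-10, 12.0% in MS-1, median log2 ratio 0.02). Of 27 measured mitotic genes and partners of FOXM1, 1 was at least 2-fold higher in SVEC4-10, 2 were in MS-1 and 24 were on neither side (median -0.05). Plk1, the mitotic kinase, had signals of 538 in SVEC4-10 cells and 747 in MS-1 cells (log2 ratio -0.47). The 3 past 2-fold were the mitotic kinesin Kif20a (777 and 372, log2 ratio 1.06), the mitotic kinesin Kif23 (308 and 699, -1.18) and the centromere protein Cenpf (305 and 671, -1.14, with another probe set at -0.05). Cdc25b, a phosphatase that activates cyclin-dependent kinases, had 191 and 328 (-0.78), and Mybl2, the MYB partner, had 106 and 152 (-0.52) but 1.30 by its second probe set. The Foxm1 signal was about 2-fold lower in SVEC4-10, and 24 of these 27 genes, FOXM1 partners included, were within 2-fold. Any link between them was not tested.

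Among 33 measured regulators of FOXO factors, 9 were at least 2-fold higher in SVEC4-10, 4 in MS-1 and 20 on neither side (median 0.04). Irs1, an adaptor of the insulin and IGF receptors, had signals of 498 in SVEC4-10 cells and 48.8 in MS-1 cells (log2 ratio 3.35). The regulatory subunits of phosphoinositide 3-kinase Pik3r1 (452 and 63.5, log2 ratio 2.83, lowest probe set 0.86) and Pik3r2 (435 and 91.7, 2.25) lay on the same side. Akt2 did too, with 335 and 60.5 (2.47, lowest probe set 1.33), while Akt1, the main AKT kinase of endothelium, had 640.3 in SVEC4-10 cells and 1330.2 in MS-1 cells (-1.05, with a probe set at -0.14). The 2 measured AKT kinases named here were therefore on opposite sides by their representative probe sets. A link with Foxo1 or Foxo3 was not tested.

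Of 33 measured genes described as FOXO targets, 4 were at least 2-fold higher in SVEC4-10, 8 in MS-1 and 21 on neither side (median 0.02). Those furthest from 0 were endothelial genes or a cyclin, all higher in MS-1. Nos3, the endothelial nitric oxide synthase, gave a signal of 10.2 in SVEC4-10 cells and 4450 in MS-1 cells, and S1pr1, a sphingosine phosphate receptor, had 13.5 and 1907. Angpt2, the antagonist of the Tek receptor, had 34.2 and 3699 (log2 ratio -6.76), but its second probe set gave -0.01. Ccnd1, cyclin D1, had 167 and 6960 (-5.38), and Klf2, the flow-responsive endothelial factor, had 120 and 2361 (-4.30). Cdkn1b, the cell cycle inhibitor p27, had 550.1 in SVEC4-10 cells and 328 in MS-1 cells (0.75). The related inhibitor p21, Cdkn1a, named after its values were seen, lay on the other side with 538 in SVEC4-10 cells and 2507 in MS-1 cells (-2.22, second probe set -2.37).

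The list of vascular and hedgehog genes around FOXC1, FOXC2 and FOXF1 had 1 of 23 measured genes at least 2-fold higher in SVEC4-10, 14 in MS-1 and 8 on neither side (median -3.01). Some of its genes, such as Pecam1, Cdh5 and Kdr, are themselves endothelial markers. Kdr, a receptor of VEGF, showed signals of 21.9 in SVEC4-10 cells and 1268 in MS-1 cells (log2 ratio -5.86), and Tie1, an endothelial receptor kinase, had 0.660 and 1218. Hedgehog genes were less far apart: the receptor Ptch1 had 155 and 284 (-0.87), Gli1 was under background in both lines, and Gli2, a transcription factor of the pathway, had 75.2 in SVEC4-10 cells and 1.47 in MS-1 cells (at least 4.61-fold higher in SVEC4-10). Foxf1, a target of this pathway in mesenchyme, differed by less than the error, as given above.

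Of 13 measured mesenchymal transition genes, 3 were at least 2-fold higher in SVEC4-10, 0 in MS-1 and 10 on neither side (median 0.26). The 3 were Cdh2, N-cadherin (736 in SVEC4-10 cells and 31.9 in MS-1 cells, log2 ratio 4.53), Twist1 (210.5 and 10.4, at least 12.9-fold higher) and Twist2 (137 and 11.0, at least 8.39-fold higher), both helix-loop-helix factors of mesenchyme. Tgfb2, a growth factor that induces this transition, had 378 and 192 (0.98).

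Of 13 liver and endoderm genes downstream of FOXA factors on the array, 7 were measured. Among these, 2 were at least 2-fold higher in SVEC4-10, 2 in MS-1 and 3 on neither side (median 0.73). None of the 7 was above background on both arrays, so the ratios and the median rest on bounds. The 3 on neither side are thus not shown to differ by under 2-fold. The 2 towards SVEC4-10 were Gata6 (992 in SVEC4-10 cells and 11.1 in MS-1 cells, at least 60.9-fold higher) and Gata4 (169 and 7.35, at least 10.4-fold higher). Both are GATA factors that are made in mesoderm as well as endoderm. The lowest log2 ratio among the measured Gata6 probe sets was 1.2. The 2 towards MS-1 were the apolipoprotein Apoa2 (14.6 in SVEC4-10 cells and 40.1 in MS-1 cells) and the fetal serum protein Afp (5.71 and 63.2). Another Afp probe set had a log2 ratio of 0.04. Of 20 motile cilium genes on the array, 7 were measured, 2 of them at least 2-fold higher in SVEC4-10. The other 5 were on neither side, most of them at a bound, and so was the median (0.33). The 2 were Mlf1 (265 in SVEC4-10 cells and 1.23 in MS-1 cells) and Rfx3, a ciliogenesis factor (59.5 and 20.0), and Rfx2, its relative, had 28.8 and 16.3. Foxj1 itself was not above background. With poly-A scaling the medians became -0.47 for FOXO regulators, -0.49 for FOXO targets and -0.56 for mitotic genes with FOXM1 partners. They became -3.52 for vascular genes, -0.25 for mesenchymal transition genes, 0.21 for endoderm genes and -0.18 for cilium genes. The median of all measured genes became -0.49.

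**Figure D5:**
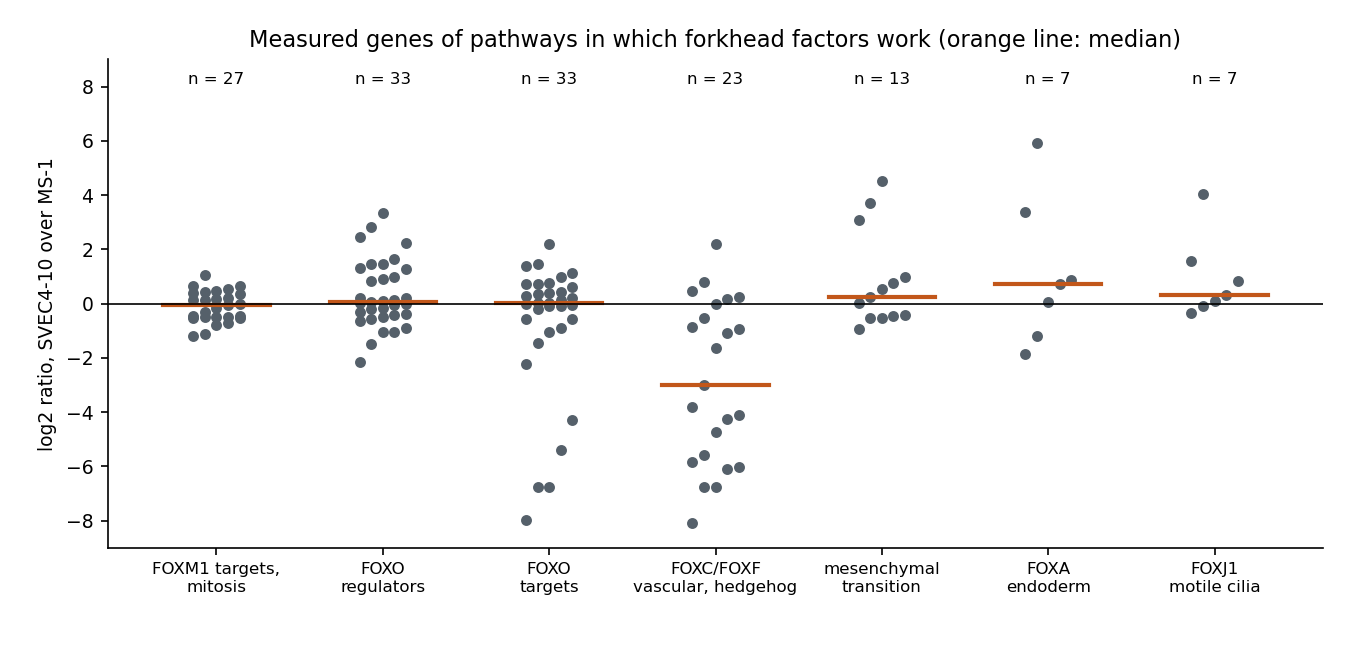
Log2 ratio of SVEC4-10 over MS-1 (y axis) of each measured gene in 7 lists of pathways in which forkhead factors work, with the number measured above and the median as an orange line; genes at background on 1 array are plotted at their bound. Mitotic genes and FOXM1 partners lie close to 0 (median -0.05), and the vascular list reaches furthest towards MS-1 (median -3.01).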

How the data were processed

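Trizol RNA was the source of biotin-labelled cRNA, 6 µg of total RNA per array, per the labels' protocols. The deposited intensities are linear and hold 1 value for each probe set of each array. How probes were summarised is not stated in the sources. The 2%-trimmed mean was 150.001 for each array, so the authors had brought both to the same target, and no further scaling was applied. Of 45101 probe sets, 34945 had 1 gene in the platform annotation, 932 had several, 9160 were unnamed here and 64 were controls. Names were updated by gene identifier to RefSeq GRCm38.p6, which all 83 forkhead probe sets matched.

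Each value was raised to its array's background before the log2 ratio. The representative of a gene was its brightest measured probe set by mean log2 signal, with the _x_at class used only where no other was measured. Every measured forkhead gene is named, with up to 4 genes of each pathway list furthest from 0 and a fixed set. Genes were counted at 2-fold and 4-fold with no test. Depth is not defined for arrays, and their number limits the precision. The steps were tested on simulated arrays. The alternatives were 3 scalings, 3 backgrounds, 3 choices of probe set and an 8-fold threshold. Members, lists and settings were chosen with earlier results of these data known; pairs within classes and neighbouring genes were added after the forkhead values were seen. Python 3.11.15 and pandas 2.3.3 were used.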

Additional observations from a re-analysis of the deposited data

Results flagged for a closer look

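Outside the comparison, 2 probe sets carried signal above background and were left out because the annotation assigns each to several genes, a forkhead gene among them. The first, assigned to 3 genes, gave 439.9 in SVEC4-10 cells and 682 in MS-1 cells, a log2 ratio of -0.63. The second, assigned to 2 genes, gave 21.2 in SVEC4-10 cells and 4.94, which is under background, in MS-1 cells, a log2 ratio of at least 0.38. Neither value can be given to a single gene.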

How the results depend on the processing

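Foxa2, Foxc1, Foxd1, Foxc2 and Foxd2 kept their direction and a difference of at least 2-fold under all 9 alternatives of scaling, background and probe set. Their log2 ratios were 2.69 to 5.02, 2.01 to 4.33, 2.64 to 4.26, -2.53 to -1.37 and -2.28 to -1.77, in that order. Foxa2, Foxd1, Foxc2, Foxd2 and Foxf2 have 1 measured probe set each, so the 3 choices of probe set could not change them. Foxf2 (0.62 to 2.77) and Foxq1 (0.73 to 1.54) kept their direction in 9 of 9 and 2-fold in 8 and 7, Foxm1 (-1.55 to -0.98) in 8 and Foxp4 (0.07 to 1.17) in 6. Scaling to the poly-A controls gave 2 forkhead genes past 4-fold and 7 past 2-fold towards MS-1, and a median log2 ratio of -0.45. The count past 4-fold towards MS-1, which is Foxc2 alone, became 0 with background doubled and 0 at 8-fold. No gene at least 2-fold apart changed sign under these alternatives, but none of them takes the Foxp4 probe set at -0.76 on its own. The mean over measured probe sets includes it and gave a log2 ratio of 0.16 for Foxp4. No paired analysis was possible because each line has 1 array, and for the same reason no replicate could be left out. Signals near background limit Foxc2, Foxf2, Foxh1, Foxn1, Foxp2 and Foxq1.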
